A study of Mus musculus with 7 samples.

Results

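This set holds 22 genes of tibialis anterior (TA) muscle whose expression was far higher in C2-/- mice than in any wild-type (WT) library. The genes were chosen by their measured values. A gene was taken when its smallest value over the 3 C2-/- libraries exceeded its largest value over the 4 WT libraries by more than 2 on the log2 scale and its C2-/- mean was at least 2. Of 12239 genes in the table, 22 (0.180%) were selected on these criteria, and 1 further gene that met both was left out by the rule. The difference between the lowest C2-/- and the highest WT value is called the gap below. Because the gap chose the genes, the values are given as a description with no test. The lack of overlap between genotypes is a result of the selection, and over the whole table every C2-/- value lay above every WT value in 2765 genes (22.6%).

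TA muscle, a fast-twitch muscle of the lower leg, came from male mice on the FVBN background at 5 to 6 months of age, either WT or homozygous for a disrupted *Mybpc2* gene (C2-/-). The gene encodes the fast isoform of myosin binding protein-C (fMyBP-C), a thick-filament protein, and the allele carries a neomycin-resistance cassette flanked by LoxP sites where exons 2 to 22 would be. No other allele and no treatment was named for either group. RNA was sequenced in 4 WT and 3 C2-/- libraries, and levels are given on a log2 scale as CPM, the count for each gene out of 1e6, scaled by the trimmed mean of M values (TMM).

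The libraries held 4683853 to 15464499 reads in WT and 2613277 to 4917936 in C2-/-, and the 3 deepest libraries were all WT. WT replicate 4 was the only WT library with a depth in the C2-/- range. *Mybpc2* stood at 12.41 to 12.85 in WT and at -0.47 to 1.67 in C2-/-, so each library carried the level of its label. All 10 listed fast-fibre markers were present, with a summed level of 161703 to 199160 CPM in WT and 88134 to 111721 CPM in C2-/-. Of these 10, 5 fell and 0 rose by limma at an adjusted p under 0.05 and a fold above 1.5, with a median log2 change of -0.78, where 25.0% of all genes fell and 20.2% rose. After the GC correction described below 2 fell and 1 rose, with a median of 0.094, where 8.33% of all genes with a matched transcript fell and 12.3% rose. In bulk tissue, fewer cells of a type and less RNA per cell cannot be told apart. The labels do not say whether the libraries of a group came from separate animals. The paper's stated group sizes for the young TA muscle of mice of each genotype match the libraries. How much of the spread between libraries was technical was not tested.

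The 22 genes do not form a known pathway. They include regulators of transcription such as the zinc finger proteins, which bind DNA through repeated finger motifs and often arise in clusters of near-identical copies, and Smad9, which carries bone morphogenetic protein (BMP) signals to the nucleus. Others encode a secreted growth factor, metabolic and sugar-transferring enzymes, a meiotic protein and noncoding RNAs. By annotation, 18 were protein-coding, 2 were long noncoding RNAs, 1 was a microRNA and 1 a small nucleolar RNA. They lay on 12 chromosomes, with 5 on chromosome 2 and 3 on chromosome 17, and no 2 of them lay within 200 kb of each other. The nearest pair, *Slc24a5* and *Fgf7*, were 946 kb apart.

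Several of the genes share sequence with other genes, which matters for how reads are assigned, so the stretches concerned are shown first. They are coding sequence of GRCm38, written 5′ to 3′ on the strand of the gene. Capitals mark 60 bases that are identical in another gene, and lower case marks the adjoining bases that are not part of the shared run.
Gm14326, shared with Gm14399, chr2:177946749-177946818, minus strand: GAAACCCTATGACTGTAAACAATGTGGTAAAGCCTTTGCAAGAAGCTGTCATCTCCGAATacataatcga
Zfp97, shared with Zfp960, chr17:17144688-17144757, plus strand: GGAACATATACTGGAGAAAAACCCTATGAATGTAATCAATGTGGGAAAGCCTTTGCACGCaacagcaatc
Klra9, shared with Klra11-ps, chr6:130179054-130179123, minus strand: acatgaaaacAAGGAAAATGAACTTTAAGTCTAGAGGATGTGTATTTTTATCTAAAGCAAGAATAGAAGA
Lipo1, shared with Gm8978, chr19:33776604-33776673, minus strand: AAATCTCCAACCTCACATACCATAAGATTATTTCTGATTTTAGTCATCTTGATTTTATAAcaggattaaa
The microRNA gene Mir684-1 (chr2:80628705-80628790, minus strand) spans 86 bases, of which an unbroken run of 85 is also found in an annotated *Sumo2* transcript of chromosome 11, outside its coding sequence. Its first 30 bases, all within the shared run and so in capitals, are given next.
Mir684-1: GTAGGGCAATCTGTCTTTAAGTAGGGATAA
Of all 50-base stretches in the transcripts of a gene, the share found in any other gene was 97.3% for Mir684-1, 85.4% for *Gm14326*, 81.3% for *Zfp97*, 44.4% for *Lipo1*, 31.5% for *Klra9* and 11.8% for *Dpm1*. It was 2.19% for *Slc24a5* and below 1% for 14 others, and it could not be computed for AF357359, which had no matched transcript. How the authors treated reads that map to several places was not given in the sources used here, so the levels of the first 6 genes are uncertain.

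Promoters of the set were compared with those of the whole table because the genes were selected for a shared pattern. Promoter sequences from RefSeq (GRCm38.p6), 250 bases before to 50 after a start, were matched for 19 of the 22 genes, with 23 promoters. They differed widely among themselves, and both examples come from protein-coding genes whose gap stayed above 2 after the correction for GC content described below. Capitals mark GGGCGG (the GC box) or CCAAT on either strand, TATAAA (the TATA box) and CAGCTG (an E-box).
Plagl1, chr10:13090582-13090881, plus strand: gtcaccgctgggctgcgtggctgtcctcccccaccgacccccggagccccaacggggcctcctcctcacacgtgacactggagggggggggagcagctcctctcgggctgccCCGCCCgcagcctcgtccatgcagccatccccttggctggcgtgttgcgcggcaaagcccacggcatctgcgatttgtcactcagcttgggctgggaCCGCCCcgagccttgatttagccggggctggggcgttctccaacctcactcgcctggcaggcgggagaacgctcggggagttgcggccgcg
Rec114, chr9:58741510-58741809, minus strand: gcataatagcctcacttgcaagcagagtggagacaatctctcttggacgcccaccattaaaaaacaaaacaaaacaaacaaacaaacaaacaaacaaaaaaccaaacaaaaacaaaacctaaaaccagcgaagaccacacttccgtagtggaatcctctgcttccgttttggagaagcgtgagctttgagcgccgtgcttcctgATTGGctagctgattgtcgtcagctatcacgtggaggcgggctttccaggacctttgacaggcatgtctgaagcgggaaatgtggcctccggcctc
The *Plagl1* promoter was 70.7% G and C with 26 CpG dinucleotides, and that of *Rec114* was 47.7% with 12. The median over the 23 promoters was 55.3% with 10 CpG dinucleotides, compared with 60.7% and 20 over 12444 promoters of genes in the table. Transcripts of the set were also poor in G and C, as given below, and whether the promoters differ beyond that was not tested. The GC box was found in 8 of the 23 (34.8%, 61.9% of all promoters), CCAAT in 7 (30.4%, 37.2%), the E-box in 5 (21.7%, 15.8%) and the TATA box in 1 (4.35%, 7.37%). *Dennd2d* and *Zfp54* had several promoters with overlapping windows, so a GC box of the former and an E-box of the latter were counted more than once. These are matches of letters and not evidence of binding.

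**Figure D1:**
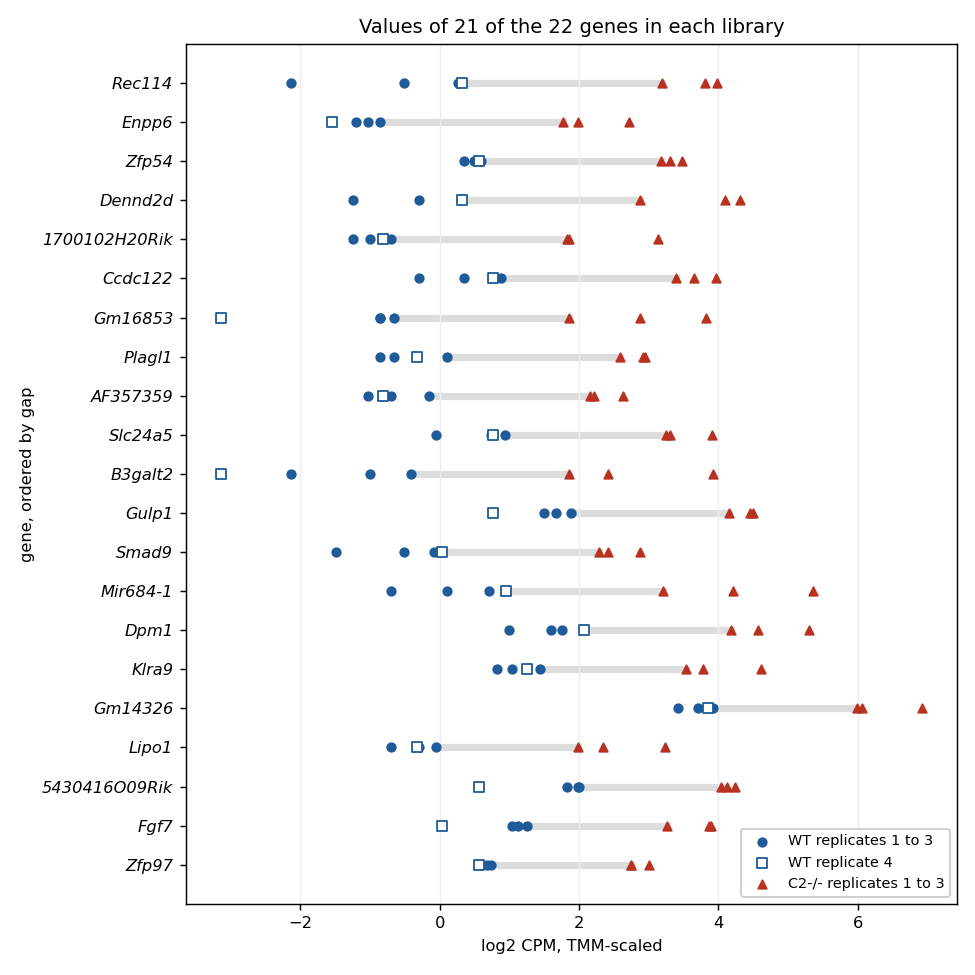
Log2 CPM of 21 of the 22 genes in each library, ordered by gap. Circles are WT replicates 1 to 3, open squares WT replicate 4 and triangles C2-/- replicates 1 to 3, and the grey bar spans the gap, which runs from 2.02 in *Zfp97* to 2.87 in *Rec114*.

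As a group, the 22 genes had low CPM in WT muscle and mid-range CPM in C2-/- muscle, not corrected for transcript length. Their WT means ran from -1.67 to 3.73 with a median of 0.02, and their C2-/- means from 2.16 to 6.33 with a median of 3.40. The median gene stood at the 3.15 percentile of all genes by WT mean and at the 44.6 percentile by C2-/- mean. The difference between the means ran from 2.20 to 4.40 with a median of 3.05, beside a median of -0.14 over all genes. Because 0.5 read was added before the log, the values of the scarcest genes depend on depth.

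The reads behind these values were few. The genes had 8 to 324 reads in a C2-/- library, 3 to 233 in WT replicates 1 to 3 and 0 to 63 in WT replicate 4. In WT replicate 4, 8 genes had 3 reads or fewer, of which *Gm16853* and *B3galt2* had 0. Exact Poisson 95% intervals, which cover counting error only, placed the lowest C2-/- library above the highest WT library in 20 of the 22 genes, the exceptions being *1700102H20Rik* and *Lipo1*. Every gene of the table exceeded 1 CPM before TMM scaling in at least 3 libraries, and 11 of the 22 did so in fewer than 3 WT libraries (8 of them in none). Those 11 are therefore in the table only through their C2-/- libraries, and a count over the 22 is no support for a difference.

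**Figure D2:**
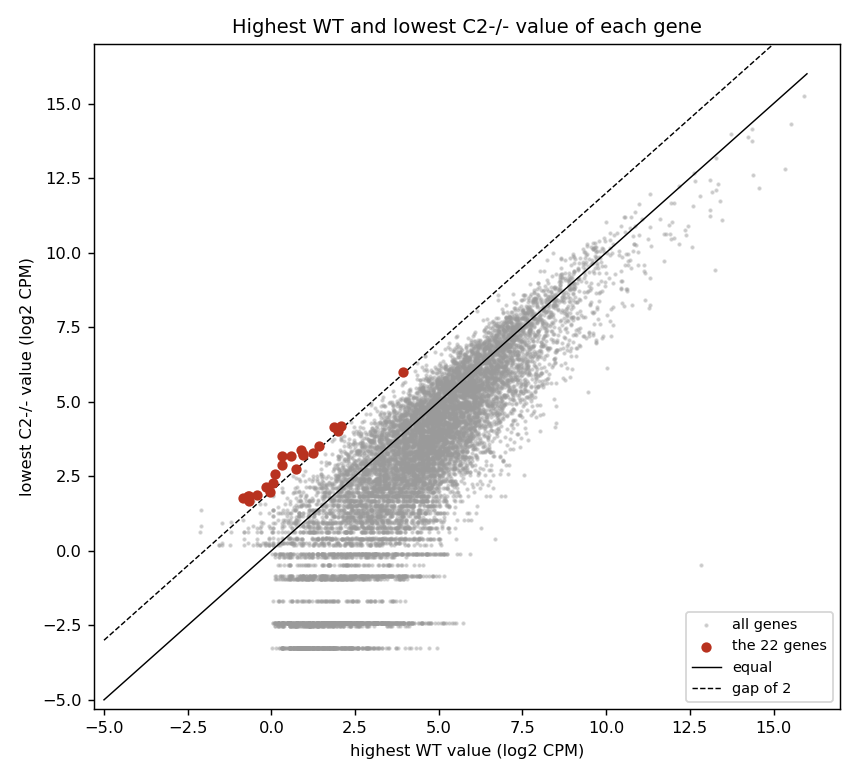
Highest WT value against lowest C2-/- value (log2 CPM) for all genes except the 1 left out, as grey points, with the 22 genes in red. The solid line marks equal values and the dashed line the gap of 2, above which the 22 genes lie, and grey points above the dashed line had a C2-/- mean below 2.

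The zinc finger group comes first. *Gm14326* (chr2:177935993-177957386), which encodes a zinc finger protein of a cluster on chromosome 2, measured 3.42, 3.70, 3.93 and 3.85 in the 4 WT libraries, in the order of their replicate numbers, and 6.06, 6.92 and 5.99 in the 3 C2-/- libraries. It was the only one of the 22 with a mean over the 7 libraries of at least 3, and it had 164, 194, 233 and 63 reads in WT and 194, 324 and 307 in C2-/-. Its means were 3.73 ± 0.22 (SD, n = 4) and 6.33 ± 0.52 (SD, n = 3), a 6.07-fold difference.

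*Zfp54* (chr17:21423227-21435384) had values of 0.49, 0.59, 0.34 and 0.56 in the WT replicates and 3.48, 3.31 and 3.17 in the C2-/- replicates. Both genotypes were tight, with a range of 0.24 in WT and 0.31 in C2-/-, and the gap was 2.58. *Zfp97* (chr17:17121108-17147138) ranged least in WT, by 0.17, with 0.68, 0.59, 0.73 and 0.56 in WT and 2.75, 3.01 and 2.75 in C2-/-. Its gap of 2.02 was the smallest of the 22. The means were 0.50 ± 0.11 and 3.32 ± 0.16 for *Zfp54* and 0.64 ± 0.08 and 2.83 ± 0.15 for *Zfp97* (SD, n = 4 and 3).

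*Plagl1* (chr10:13090832-13131694), an imprinted gene for a zinc finger transcription factor, stood at -0.85, -0.66, 0.10 and -0.33 in WT and 2.59, 2.94 and 2.92 in C2-/-. The C2-/- values were within 0.35 of each other, and the reads behind them were 17, 20 and 36. The group means were -0.43 ± 0.42 and 2.82 ± 0.20 (SD, n = 4 and 3), a 9.51-fold difference.

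Other zinc finger genes were read against the background of all genes, of which 20.2% rose and 25.0% fell in C2-/-. Of 312 other genes with a Zfp symbol, 96 rose and 48 fell, with a median log2 change of 0.34 beside -0.14 over all genes, and after a correction for GC content 19 rose and 20 fell, beside 12.3% and 8.33% of all genes. Of 12 zinc finger genes with Gm or Rik symbols beside *Gm14326*, 10 rose and 0 fell, with a median of 2.37, and 4 rose after the GC correction. *Gm14305* (log2 change 4.51 ± 1.04 SE, adjusted p = 0.00662), *Gm13157* (log2 change 2.52 ± 0.39 SE, adjusted p = 0.00106), *Gm7120* (log2 change 2.42 ± 0.30 SE, adjusted p = 0.000444) and *Gm14322* (log2 change 2.32 ± 0.57 SE, adjusted p = 0.00842) were among the 10. Under the GC correction *Gm13157* (log2 change 1.08, adjusted p = 0.0503) and *Gm14322* (log2 change 1.26, adjusted p = 0.101) did not pass.

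Among genes of signalling, *Smad9* (chr3:54755455-54801662), a receptor-regulated Smad of the BMP pathway, had values of -1.48, -0.51, -0.08 and 0.03 in WT and 2.41, 2.87 and 2.28 in C2-/-. The lowest WT library was replicate 1 and the highest replicate 4, and the C2-/- reads were 15, 19 and 23. The difference of the means was 3.03, from -0.51 ± 0.69 to 2.52 ± 0.31 (SD, n = 4 and 3). Of 11 other Smad and BMP target genes, *Smad2* (log2 change 0.82 ± 0.24 SE, adjusted p = 0.019) rose, *Smad3* (log2 change -0.96 ± 0.16 SE, adjusted p = 0.00165) fell and 9 did not pass, shares below the 20.2% and 25.0% of all genes. Both encode Smads of the TGF-beta and activin branch, and under the GC correction neither passed (log2 change 0.28, adjusted p = 0.376 and log2 change -0.24, adjusted p = 0.328), whereas 3 other genes of the list rose, beside 12.3% of all genes. The number of the 11 that rose was 4 with quantile normalization and with voom, and 0 without WT replicate 1. Its place below the share of all genes therefore depends on the processing.

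*Fgf7* (chr2:126034658-126091185) encodes fibroblast growth factor 7, which mesenchymal cells secrete and epithelial cells receive. It stood at 1.04, 1.12, 1.25 and 0.03 in WT replicates and 3.87, 3.89 and 3.27 in C2-/-. WT replicate 4, with 4 reads, was the lowest, whereas the other WT libraries lay within 0.21 of each other. The group means were 0.86 ± 0.56 and 3.67 ± 0.35 (SD, n = 4 and 3). Of 9 other fibroblast growth factor and receptor genes, *Fgf13* (log2 change 1.37 ± 0.28 SE, adjusted p = 0.0036) and *Fgf20* (log2 change 1.84 ± 0.56 SE, adjusted p = 0.0228) rose, *Fgfr4* (log2 change -2.56 ± 0.87 SE, adjusted p = 0.0344) and *Fgfrl1* (log2 change -1.73 ± 0.46 SE, adjusted p = 0.0119) fell, and 5 did not pass. These shares are near the 20.2% and 25.0% of all genes. With the GC correction 2 rose and 0 fell, beside 12.3% and 8.33%, *Fgf13* (log2 change 0.99, adjusted p = 0.0227) among them, whereas *Fgf20* did not pass (log2 change 1.38, adjusted p = 0.0938).

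Fibroblast markers moved with the genotype in these libraries. Of 8 listed, 6 rose and 1 fell, beside 20.2% and 25.0% of all genes, and 4 rose after the GC correction, beside 12.3% of all genes. None was at 0 reads in any library. Their summed level was 988 to 1188 CPM in WT and 2080 to 2605 CPM in C2-/-. The 4 adipocyte markers in the table summed to 159 to 365 CPM in WT and 471 to 633 CPM in C2-/-. Of them 1 rose and 0 fell, also after the GC correction. The 5 satellite cell markers summed to 60.2 to 82.4 CPM in WT and 31.7 to 45.7 CPM in C2-/-, and 1 rose and 2 fell. Their median log2 change was -0.96 as deposited and 0.48 after the GC correction. After it 0 rose and 1 fell, beside 12.3% and 8.33% of all genes. The part of these cells in the level of *Fgf7* was not tested.

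*Gulp1* (chr1:44551380-44796838), which encodes an adaptor for the engulfment of apoptotic cells, rested on at least 58 reads in each C2-/- library. Its values were 1.88, 1.67, 1.502 and 0.77 in WT and 4.49, 4.45 and 4.15 in C2-/-, with 65, 58 and 85 reads in the latter. The means were 1.45 ± 0.48 and 4.36 ± 0.19 (SD, n = 4 and 3), a 7.51-fold difference. Of 12 other engulfment receptors and adaptors 0 rose and 4 fell, beside 20.2% and 25.0% of all genes. *Scarf1* was among the 4 (log2 change -2.10 ± 0.49 SE, adjusted p = 0.00727), and 1 rose and 0 fell after the GC correction, beside 12.3% and 8.33%.

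*Dennd2d* (chr3:106482431-106503030), for a DENN domain protein that activates Rab GTPases, had one of the larger gaps, 2.54. Its values were -1.24, 0.31, -0.30 and 0.32 in WT and 4.09, 2.87 and 4.30 in C2-/-, where replicate 2 was lowest by more than 1. Of 12 other DENN domain genes 2 rose and 2 fell, neither share above the 20.2% and 25.0% of all genes, led by *Dennd1b* (log2 change 1.43 ± 0.21 SE, adjusted p = 0.000915) and *Dennd4b* (log2 change -2.34 ± 0.45 SE, adjusted p = 0.00283), and 0 passed after the GC correction.

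*Klra9* (chr6:130178626-130194374) encodes a killer cell lectin-like receptor of natural killer cells that recognises major histocompatibility complex class I. It stood at 1.04, 0.82, 1.43 and 1.26 in WT and 3.53, 4.62 and 3.78 in C2-/-, means of 1.14 ± 0.26 and 3.98 ± 0.57 (SD, n = 4 and 3). None of the 8 listed T and natural killer cell markers was in the table. The related *Klra10* was at -1.44 to 0.03 in WT and 0.19 to 2.32 in C2-/- and did not pass (log2 change 1.71 ± 0.75 SE, adjusted p = 0.0854).

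Among enzymes and transporters, *Dpm1* (chr2:168209048-168230379) encodes the catalytic subunit of dolichol-phosphate mannose synthase, which supplies mannose for glycosylation. It had 0.99, 1.75, 1.60 and 2.07 in WT and 4.18, 4.57 and 5.30 in C2-/-, on 18 to 50 and 52 to 190 reads. Means were 1.60 ± 0.45 and 4.68 ± 0.57 (SD, n = 4 and 3). Of its partner subunits, *Dpm2* fell (log2 change -2.72 ± 0.65 SE, adjusted p = 0.00796), and *Dpm3* had values of 0.95 to 1.63 in WT and 1.16 to 2.44 in C2-/- and did not pass (log2 change 0.36 ± 0.49 SE, adjusted p = 0.558). *Dpm2* was still lower with the GC correction (log2 change -1.95, adjusted p = 0.0409). Of 21 other genes of N-glycan precursor assembly 3 rose and 6 fell, near the 20.2% and 25.0% of all genes, among them *Gmppb* (log2 change 0.99 ± 0.21 SE, adjusted p = 0.00442), *Alg13* (log2 change 1.97 ± 0.33 SE, adjusted p = 0.00152) and *Mpdu1* (log2 change -3.44 ± 0.57 SE, adjusted p = 0.00151), and 2 rose and 2 fell after the GC correction, beside 12.3% and 8.33%. *Alg13* was not among these (log2 change 0.92, adjusted p = 0.0656).

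*B3galt2* (chr1:143640697-143649937), a beta-1,3-galactosyltransferase, had a difference between means of 4.40 and the fewest WT reads of the set, 3, 7, 11 and 0. Its values were -2.13, -0.997, -0.42 and -3.14 in WT and 2.41, 3.92 and 1.86 in C2-/-, where replicate 2 stood highest. As WT replicate 4 had 0 reads, its value depends on the 0.5 read added before the log, and so does this difference. Of 10 other genes of this transferase family 0 rose and 1 fell, *B3galt4* (log2 change -3.15 ± 0.84 SE, adjusted p = 0.0124), shares below the 20.2% and 25.0% of all genes, and 0 passed after the GC correction.

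*Enpp6* (chr8:46939197-47096762), a choline-specific phosphodiesterase, had the lowest C2-/- mean of the set, 2.16 ± 0.49 (SD, n = 3). Its values were -1.03, -1.20, -0.85 and -1.55 in WT, on 1 to 8 reads, and 1.98, 2.71 and 1.77 in C2-/-, on 11, 17 and 16 reads. Of 5 other ectonucleotide pyrophosphatases *Enpp4* rose (log2 change 0.94 ± 0.28 SE, adjusted p = 0.0212) and 4 did not pass, near the 20.2% of all genes that rose, and with the GC correction 0 passed. With median centring 3 of the 5 rose, beside 3040 of all 12239 genes. With quantile normalization 4 rose, beside 2883, and 0 or 1 rose in the other settings.

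*Lipo1* (chr19:33776037-33787452), an acid lipase family gene, had -0.30, -0.05, -0.69 and -0.33 in WT and 1.98, 2.34 and 3.24 in C2-/-, where replicate 3 stood highest. Of 4 other genes with a Lip symbol, *Lipa* (log2 change 1.51 ± 0.33 SE, adjusted p = 0.00485), the lysosomal acid lipase, rose and *Lipe* (log2 change -1.55 ± 0.23 SE, adjusted p = 0.000915), the hormone-sensitive lipase, fell, beside 20.2% and 25.0% of all genes. After the GC correction *Lipa* passed (log2 change 1.04, adjusted p = 0.0479) and *Lipe* did not (log2 change -0.42, adjusted p = 0.231). *Slc24a5* (chr2:125068127-125088677), a potassium-dependent sodium/calcium exchanger known from pigment cells, had 0.94, -0.05, 0.73 and 0.77 in WT and 3.24, 3.31 and 3.91 in C2-/-. Neither of 2 other exchangers of this family passed.

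*Rec114* (chr9:58652856-58822706), needed for the DNA breaks that start meiotic recombination, had the largest gap, 2.87. Its values were 0.27, -0.51, -2.13 and 0.32 in WT and 3.19, 3.81 and 3.98 in C2-/-, so the WT libraries disagreed by 2.46 whereas the C2-/- libraries lay within 0.80. The reads were 18, 10, 3 and 5 in WT and 26, 37 and 76 in C2-/-. The means were -0.51 ± 1.15 and 3.66 ± 0.42 (SD, n = 4 and 3), an 18.1-fold difference. Of 21 listed meiotic chromosome genes only *Sycp3* was also in the table. It encodes a synaptonemal complex protein and was past the threshold (log2 change 2.59 ± 0.45 SE, adjusted p = 0.00176), with 6.15 in WT replicate 4 and 4.13 to 4.30 in the other WT libraries, and it did not pass with the GC correction (log2 change 0.93, adjusted p = 0.0939).

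*Ccdc122* (chr14:77036772-77112263), for a coiled-coil protein, had 0.35, 0.88, -0.30 and 0.77 in WT and 3.39, 3.65 and 3.97 in C2-/-. Its C2-/- values lay within 0.57. *5430416O09Rik* (chr4:43730034-43734534), named *Spaar* in RefSeq and encoding a small polypeptide that restrains the response of mTORC1 to amino acids, had 2.00, 1.99, 1.83 and 0.56 in WT and 4.03, 4.24 and 4.13 in C2-/-. It had the smallest C2-/- range of the set, 0.21, whereas WT replicate 4, with 6 reads, lay 1.26 below the next WT library.

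Of the set, 4 genes were noncoding. Mir684-1 had 0.11, 0.71, -0.69 and 0.95 in WT and 4.20, 3.20 and 5.36 in C2-/-, the widest C2-/- range of the set, 2.16, with 53, 24 and 198 reads. AF357359 (chr12:109650709-109650738), a small nucleolar RNA, had -1.03, -0.15, -0.69 and -0.81 in WT and 2.22, 2.63 and 2.15 in C2-/-. Both classes lack a poly(A) tail in their mature form, and the libraries were made from RNA selected on oligo(dT), so whether these reads came from the mature RNAs was not tested.

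*Gm16853* (chr9:21405242-21411720), a long noncoding RNA, had -0.85, -0.66, -0.85 and -3.14 in WT and 1.85, 2.87 and 3.83 in C2-/-, with 0 reads in WT replicate 4 and 10, 19 and 68 in C2-/-. *1700102H20Rik* (chr17:3557824-3559863), also long noncoding, had -1.24, -0.997, -0.69 and -0.81 in WT and 1.85, 1.83 and 3.14 in C2-/-, where replicate 3 lay more than 1 above the others. Of 22 long noncoding and small RNA host genes on a list, 5 rose and 2 fell, beside 20.2% and 25.0% of all genes. After the GC correction, which could be computed for 20, 3 rose and 2 fell, beside 12.3% and 8.33%. The number that rose was 8 with median centring, 11 with quantile normalization, 10 with voom and 9 without WT replicate 4. In these settings 2771 to 3040 of all 12239 genes rose, compared with 2473 as deposited. With any other library left out, 5 to 7 of the list rose.

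Some of the genes overlap other genes, and the use of strand in counting was not given in the sources used here, so reads of overlapping exons cannot be assigned with certainty. Exon bases shared with a gene on the other strand made up 39.5% of *Slc24a5* (*Myef2*), 26.9% of *Rec114* (*Nptn*), 11.2% of *Dennd2d* (*Cept1*), 7.31% of *B3galt2* (*Cdc73*) and 6.70% of *Ccdc122* (*Lacc1*). AF357359 lies wholly in an exon of *Rian*, and Mir684-1 lies in introns of *Dusp19* and *Nup35*, on the opposite strand.

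The 9 listed partner genes were not chosen by their values. Of them 6 rose and 0 fell, beside 20.2% and 25.0% of all genes. A partner that shares exon bases with a gene of the set may also share its reads. *Myef2* had 0.77 to 2.04 in WT and 3.39 to 4.86 in C2-/- (log2 change 2.34 ± 0.49 SE, adjusted p = 0.00414) and rose. *Nptn* (log2 change 0.73 ± 0.22 SE, adjusted p = 0.0224), *Cept1* (log2 change 1.04 ± 0.23 SE, adjusted p = 0.00535) and *Cdc73* (log2 change 1.498 ± 0.22 SE, adjusted p = 0.000828) also rose. *Dusp19* (log2 change 1.08 ± 0.33 SE, adjusted p = 0.0232) and *Nup35* (log2 change 1.25 ± 0.35 SE, adjusted p = 0.0147), which hold Mir684-1, rose. With the GC correction none of these 6 passed, and *Nptn* and *Cept1* changed sign (-0.41 and -0.093). Of the 9 listed, 0 rose and 1 fell after it, beside 12.3% and 8.33% of all genes.

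Of the other partners described here, none passed. *Sumo2* had 4.90 to 5.03 in WT and 4.32 to 5.62 in C2-/- (log2 change 0.06 ± 0.29 SE, adjusted p = 0.875), and its C2-/- libraries fell in the same order as those of Mir684-1, replicate 3 highest and replicate 2 lowest. Replicate 3 was the highest C2-/- library in 10 of the 22 genes, and where the Mir684-1 reads came from was not tested. *Rian* (log2 change 0.17 ± 0.36 SE, adjusted p = 0.712) and *Lacc1* (log2 change 1.17 ± 0.64 SE, adjusted p = 0.156) had overlapping values between genotypes. *Rian* was lower in C2-/- with the GC correction (log2 change -1.34, adjusted p = 0.0254). Of 16 genes listed with *Plagl1* as zinc finger relatives or imprinted genes, 6 rose and 0 fell, beside 20.2% and 25.0% of all genes, among them *Kcnq1ot1* (log2 change 2.91 ± 0.46 SE, adjusted p = 0.00116) and *Cdkn1c* (log2 change 1.73 ± 0.24 SE, adjusted p = 0.000638), and 5 rose and 1 fell after the GC correction, beside 12.3% and 8.33%.

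**Figure D3:**
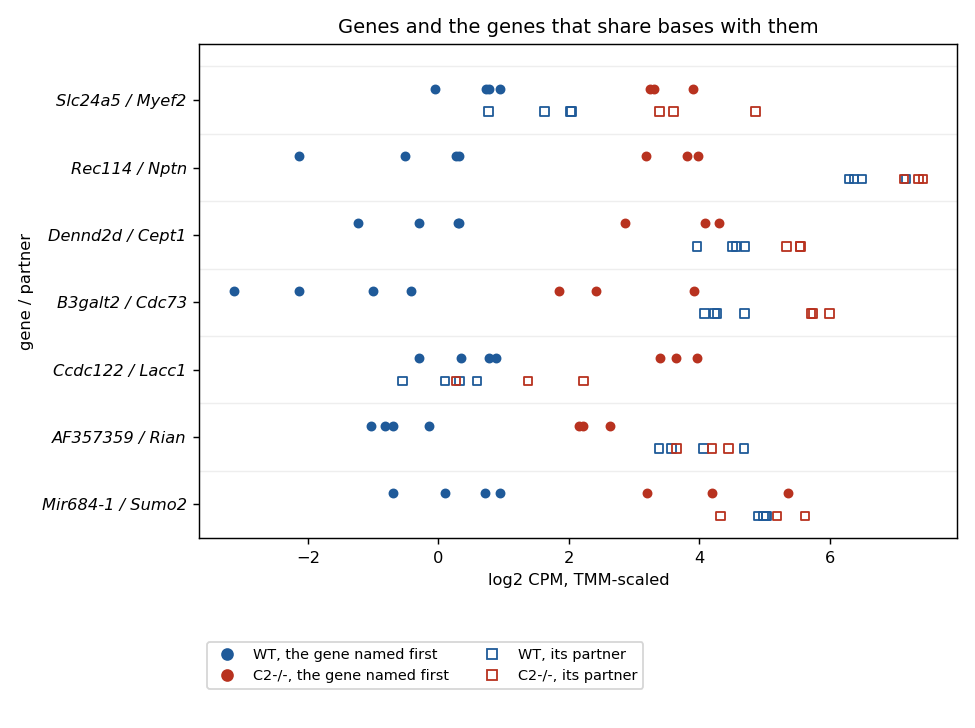
Log2 CPM in each library of 7 genes of the set (filled circles) and of the gene that shares bases with each (open squares), WT in blue and C2-/- in red. The partners *Myef2*, *Nptn*, *Cept1* and *Cdc73* rose in C2-/- by limma, and the values of *Lacc1*, *Rian* and *Sumo2* overlap between genotypes.

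Transcripts of the set were poor in G and C. The median GC content was 40.4% over the 21 genes with a matched transcript, compared with 50.2% over 12175 genes, and 18 of the 21 lay below the latter. The extremes were *Lipo1* at 35.2% and *Rec114* at 52.4%. Over these 12175 genes, which are not independent replicates, the log2 difference between genotypes fell as GC content rose (Spearman's rho -0.68). When the curve of each library on GC content was removed, every one of the 21 kept a gap above 0, from 0.49 to 3.10 with a median of 1.41, and 6 kept a gap above 2. These were *Rec114* at 3.10, *Gm16853* at 2.73, *5430416O09Rik* at 2.18, *Dennd2d* at 2.11, *Plagl1* at 2.10 and *Smad9* at 2.07. The lowest were *Zfp97* at 0.49, *B3galt2* at 0.52, *Lipo1* at 0.53 and *Fgf7* at 0.53. As the genes had been chosen for a gap above 2, a gap that stayed above 0 is partly a result of the selection. Over the 12175 genes, 20 met the rule after the correction, and 6 of these were from the set. What part of the gap goes with GC content was not tested further.

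**Figure D4:**
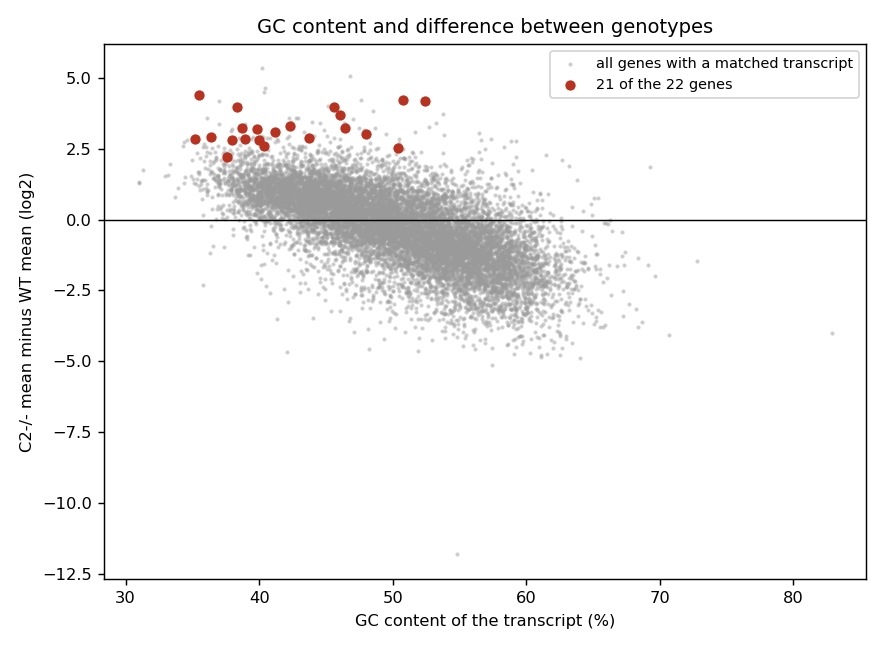
GC content of a gene's transcript (%) against C2-/- mean minus WT mean (log2) for all genes with a matched transcript in grey and 21 of the 22 genes in red. The red points run from 35.2% to 52.4% in GC content and from 2.20 to 4.40 in difference.

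The C2-/- values of a gene of the set spanned a median of 0.86 and the WT values 1.04. The lowest C2-/- value fell in replicate 1 for 10 genes, in replicate 3 for 8 and in replicate 2 for 4. The highest WT value was in replicate 3 for 8 genes, replicate 2 for 6, replicate 4 for 5 and replicate 1 for 3, so no single WT library set the gap. Counting error alone left the C2-/- libraries with intervals that share a point in 13 genes and the WT libraries in 19.

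When reads were thinned to the smallest library, 2613277, the median gap over 20 draws was above 1 in all 22 genes and above 2 in 5, namely *Rec114*, *Ccdc122*, *Plagl1*, *Dennd2d* and Mir684-1. With 2 reads added before the log, 15 of the 22 kept a gap above 2 and the lowest was 1.78. Without WT replicate 4 the rule was met by 131 genes. Leaving out a WT library can only widen a gap, so the 22 were among them by construction.

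**Figure D5:**
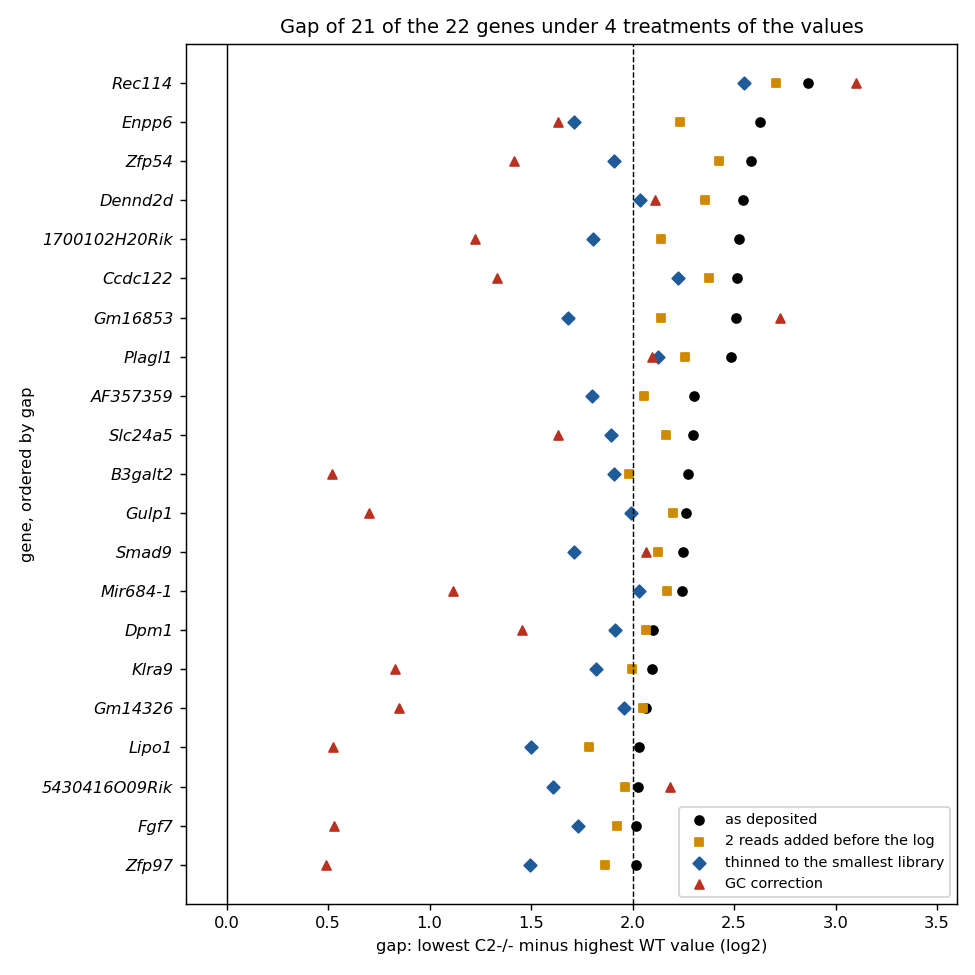
Gap of 21 of the 22 genes (lowest C2-/- minus highest WT value, log2) as deposited, with 2 reads added before the log, after thinning to the smallest library and after the GC correction. The dashed line marks 2, and no point lies at or below 0.

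The threshold cut through a continuous range. Just inside it were *5430416O09Rik* with a gap of 2.03, *Fgf7* with 2.02 and *Zfp97* with 2.02, and just outside it were *2610305D13Rik* with 1.99, *Sgpp1* with 1.96 and *Napepld* with 1.95. A further 7 genes had a gap above 2 and a C2-/- mean below 2, of which *Serpinc1* was nearest, with a gap of 3.46 and a C2-/- mean of 1.99. It had 0 to 3 reads in each WT library and 7 to 21 in C2-/-, and the others were *Ranbp3l*, *A930003A15Rik*, *Btg3*, *Vsig4*, *Omd* and *Pp2d1*.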

How the data were processed

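RNA from TA muscle was sequenced in 4 WT and 3 C2-/- libraries, and the titles gave group and replicate. Per the study's methods, reads were aligned to GRCm38.p6 with HISAT and counted with featureCounts (version 1.5.2), and the authors deposited log2 values of TMM-scaled CPM for 12239 genes. Whole read numbers were recovered from these values, which include the 0.5 read added before the log. Strand use and multiply mapped reads were not given in the sources used here. The authors' own comparison of C2-/- with WT (fold changes and p-values) was not used.

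The genes and the lists were chosen with earlier results of these data known, and families were grouped by symbol. Genes of the set were named with values in every library, except 1 that is not reported here. The selected genes were not tested. Other genes were tested with limma (version 3.58.1, R 4.3.3), with a mean-variance trend, genotype as the only term, all 7 libraries, two-sided p-values and Benjamini-Hochberg adjustment over 12239 genes. The threshold was an adjusted p under 0.05 and a fold above 1.5. The script was tested on simulated data. GC content came from 1 transcript per gene, matched for 12175 genes (99.5%), and the GC correction removed a natural spline with 5 degrees of freedom from each library. Lists named were Zfp genes, zinc finger genes with Gm or Rik symbols, meiotic genes, long noncoding and small RNA host genes, the families given with each gene, and fibroblast, adipocyte, satellite cell, T and natural killer cell and fast-fibre markers. Alternatives were median centring, quantile normalization, 2 reads added before the log, thinning over 20 draws, other minimums, leaving out each library, voom and a replicate block.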

Additional observations from a re-analysis of the deposited data

Results flagged for a closer look

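In 4 of 57 genes checked, 1 of the 4 WT libraries lay far from the other 3 by Dixon's criterion, where chance gives about 1 in 20. *Gm16853* stood at -3.14 in WT replicate 4 and at -0.85 to -0.66 in the other WT libraries. *5430416O09Rik* stood at 0.56 in WT replicate 4 and at 1.83 to 2.00 in the others. In both the outlying library was the lowest, so the gap did not rest on it. Outside the set, *Lipe* stood at 4.63 in WT replicate 1 and at 4.72 to 4.73 in the others. *Sycp3* stood at 6.15 in WT replicate 4 and at 4.13 to 4.30 in the others, and all 4 lay below the C2-/- values.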

How the results depend on the processing

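The rule was met by 34 genes with median centring, 54 with quantile normalization, 16 with 2 reads added, 20 with the GC correction and 12 (median of draws) with thinning. The 22 genes were all among the first 34 and 54, and 15 and 6 of them were among the 16 and 20. Requiring a mean log2 of 3 or more left 1, *Gm14326*, a gap above 1 gave 326, above 3 gave 0, and no minimum level gave 29. Leaving out 1 library gave 25 to 131 genes. The highest counts were 131 without WT replicate 4, 49 without C2-/- replicate 3 and 45 without C2-/- replicate 1. Leaving out a library can only widen a gap, so these counts are no sign of stability. Without C2-/- replicate 2, and also without C2-/- replicate 3, 21 of the 22 genes met the rule. The gap stayed above 2 in all 22, and the minimum C2-/- mean was what was not reached. The gap of no gene of the set changed sign, which the selection for a gap above 2 favours. By limma, 5528 genes were past the threshold (6755 at an unadjusted p under 0.05), 2508 with the GC correction (1494 higher and 1014 lower), 3216 at an adjusted p under 0.01, and 4095 to 6136 with 1 library left out. The log2 change turned negative with the GC correction for *Nptn* (-0.41), *Cept1* (-0.093), *Rian* (-1.34) and *Sumo2* (-0.61), and the cause was not tested. With 1 library left out it ran from -0.0088 to 0.42 for *Rian* and from -0.23 to 0.42 for *Sumo2*, none of these past the threshold. The replicate block gave 5901 genes, and since same-numbered libraries did not deviate together (r across genes 0.053, -0.064 and -0.053), the numbers do not pair the samples. In WT replicate 4, 8 of the 22 genes had 3 reads or fewer, so their values there rest on few reads.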
